A study of Glycine max with 8 samples.

Results

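The genes described here were nearly silent in soybean nodules that had formed with the strain labelled Bra.Q2 alone and were present at low to moderate levels in every nodule library when a second strain, labelled Bac.B, had been added. The set holds 100 of the 43517 genes in the deposited count table. Its members were chosen by their measured levels in these same libraries, in CPM (reads of a gene scaled so that all libraries have an equal sum). A gene qualified if its highest value in the Bra.Q2 libraries was under 2 CPM, which 17462 genes met. The score of a gene was the log2 ratio of its lowest value with Bac.B to its highest value without it, after 0.5 CPM had been added to both, and the 100 highest scores were kept. The difference between treatments in these genes therefore follows from the choice, and it is given below as a description and without a test.

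Nodules are root organs of legumes in which rhizobia, housed inside plant cells, reduce atmospheric nitrogen in exchange for plant carbon. A nodule holds infected and uninfected cells, an outer cortex and vascular strands, and bulk RNA averages over all of them, so that fewer cells of a type and less RNA per cell cannot be told apart. Soybean descends from a polyploid ancestor, and many of its genes exist as closely similar copies, between which short reads are hard to assign.

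RNA of Glycine max nodules was sequenced from plants grown at low nitrogen. Group R received Bra.Q2 only, and group BR received Bra.Q2 together with Bac.B, so low nitrogen and Bra.Q2 were common to all libraries. Each group held 4 libraries (BR1 to BR4 and R1 to R4), with 15133989 to 17287964 counts in BR and 14223489 to 15266510 in R. Plant age, soybean variety and the identity of the strains beyond their codes are not given in the sources used here. No source says that the 4 libraries of a treatment stem from different plants, and their spread may be technical. The files pair the gene identifiers (annotation Wm82.a2.v1) with no gene names, and none of the 43517 identifiers was found in the reference gene table. The labelled tissue could therefore not be checked against nodule marker genes, and no function is given for any gene. The 2 genes with the highest scores are given by identifier and the others by their rank in the score and their chromosome.

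Together the 100 genes took a small, even part of the reads in BR. Their summed level was 454, 438, 458 and 449 CPM from BR1 to BR4, whereas it was 65.4, 66.6, 63.6 and 58.1 CPM from R1 to R4. The BR sums thus lay within a narrow band far above the R sums, and the R sums lay close together. The rule set this gap. It also favours even BR levels and holds every R library under 2 CPM for each gene. The means were 449.9 ± 8.69 CPM in BR and 63.4 ± 3.73 CPM in R (SD, n = 4), a ratio of 7.1, or 0.045% and 0.00634% of all counts. The reads were spread over the set: the 10 genes with the most reads held 24.3% of the members' reads in BR.

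The name "near silent" applied to some members better than to others. Mean CPM in R was under 0.1 for 7 members, under 0.5 for 41 and at least 1 for 19. All 4 R libraries were at 0 counts for 2 members only, and at least 1 R library was at 0 for 14. Each R library still had reads for 93 or 94 of the 100 genes, and each BR library had reads for all of them. In R, 41 to 46 members per library reached 10 counts, against 98 to 100 in BR, so single R values rest on few reads.

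Per base of transcript, the members were modest transcripts in BR as well. FPKM (reads per length of the gene, scaled to the library total) averaged over BR had a median of 2.73 across the members and ranged from 0.296 to 12.8. The median over all 29508 genes that passed the filter on low counts was 4.82 FPKM. In R the members' mean FPKM had a median of 0.401, against 4.3 for all tested genes, and 92 members were under 1 FPKM. The median member thus lay near the bottom of the range in R, as the limit on R favoured, and below its middle in BR. In BR, 21 members reached at least 5 FPKM.

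**Figure D1:**
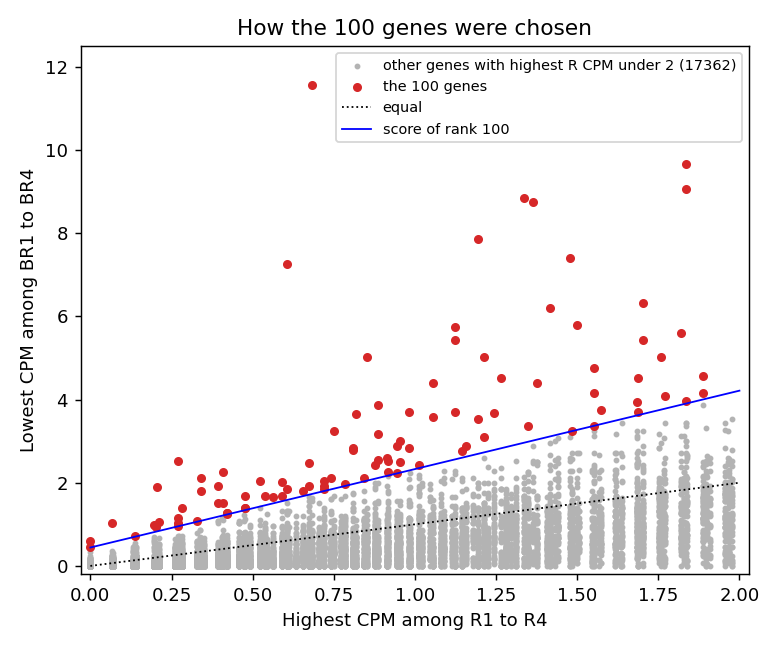
Each point is a gene whose highest R value was under 2 CPM, with that value on the x axis and its lowest BR value on the y axis, both in CPM. Red points are the 100 genes, the blue line is the score of the gene at rank 100 and the dotted line marks equal values; most red points lie close to the blue line and a few lie far above it.

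Complete separation of the groups was required by the choice and was not rare among weakly transcribed genes. Of the 17462 genes with highest R values under 2 CPM, 13855 had at least 1 count in any library, and the rest could not separate. Among all 17462, 1518 genes, or 8.69%, had every BR library above every R library. The 100 members were those with the widest gaps among them. Scores fell steeply at the top and then slowly, from 3.35 at rank 1 to a median of 1.16 and to 0.91 at rank 100, and 8 members had a score of at least 2. The limit at 100 did not fall at a break in the scores: ranks 98, 99 and 100 scored 0.919, 0.916 and 0.915, and the first 3 genes outside scored 0.912, 0.883 and 0.881.

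The mirrored choice, with the groups exchanged, found fewer genes and lower scores, by a margin that depended on the scaling. Among 16713 genes whose highest BR value was under 2 CPM, those without any count included, 365, or 2.18%, had every R library above every BR library. The 100 best of these scored from 3.08 down to 0.397, with a median of 0.665. A score of at least 1 was reached by 75 genes that were low in R and by 22 genes that were low in BR. With TMM-scaled CPM, which lowers BR relative to R, the non-overlapping genes numbered 1130 and 510, and scores of at least 1 were reached by 56 and 34. The use of this scaling for the comparison of the 2 directions was added after seeing the data. The TMM-scaled fit over all tested genes called 3054 lower and 2355 higher in BR, the opposite balance. The mirrored 100 genes summed to 370 ± 43.9 CPM in R and 67.5 ± 8.26 CPM in BR (SD, n = 4), and their R sums spread more widely, from 331 CPM in R4 to 433 in R3, than the BR sums of the members. Both rules take the lowest library of the high group. Whether the spread within R lowered the mirrored scores was not tested.

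The fold changes of single members covered a wide range. The ratio of mean BR to mean R CPM had a median of 6.98 over the 98 members with reads in R, and its extremes were 3.1 and 47.3. A ratio of at least 4 was found for 90 of the 100 genes, with the 2 genes without R reads at the lower bounds given below, of at least 8 for 41 and of at least 16 for 10. In the edgeR fit over the whole table, 2355 of 29508 tested genes, or 7.98%, were called higher in BR at an adjusted p below 0.05. That count was 1282 without BR4, 1309 without BR3, 1522 without BR1, 1502 without R4, 1562 without R3 and 4291 with total counts, so that the share lay between 4.29% and 14.5% over all settings. The filter on low counts kept 98 members and all 98 were among those calls; since the same contrast chose the members, this count supports nothing. The fitted log2 fold changes of the 98 had a median of 2.58, beside -0.02 over all tested genes, and lay between 1.43 and 5.26. Of the 35 genes called higher by at least 8-fold in the whole table, 28 were members, an overlap that the choice likewise favoured.

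**Figure D2:**
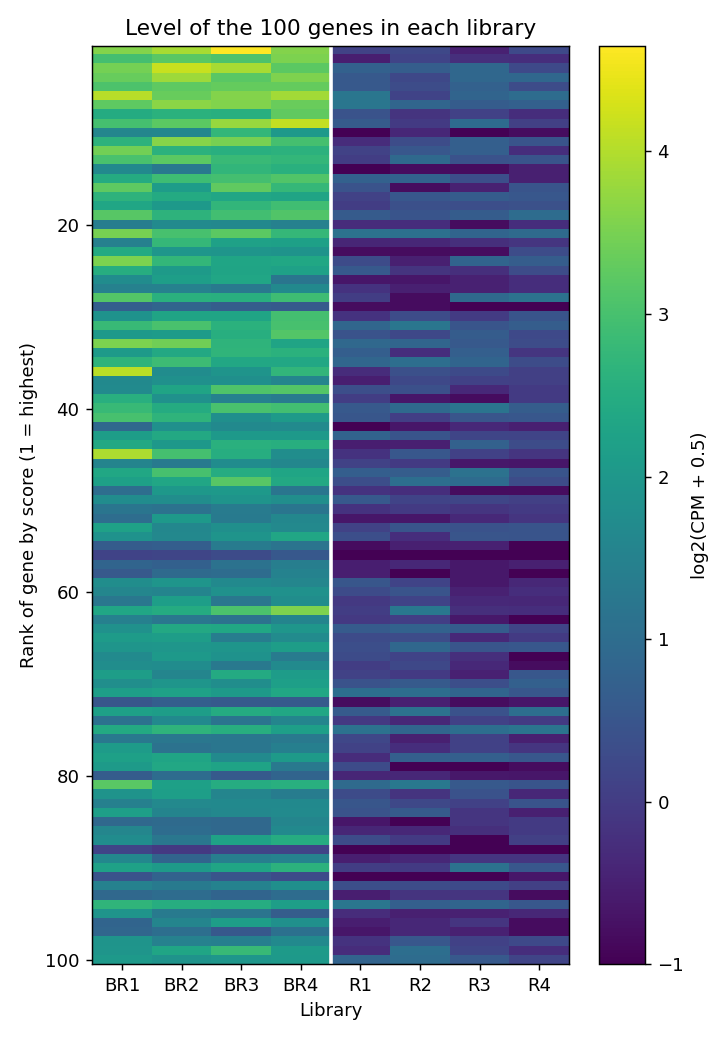
Level of each of the 100 genes (rows, ordered by score) in the 8 libraries (columns) as log2(CPM + 0.5). The 4 BR columns on the left are lighter than the 4 R columns on the right in every row, as the choice required, and single brighter cells within BR mark genes that one library carried at a higher level.

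The gene with the highest score was Glyma.06G166900.Wm82.a2.v1, on chromosome 6, a gene of 1340 bases. From BR1 to BR4 its counts were 177, 251, 408 and 192, and from R1 to R4 they were 9, 10, 3 and 10. BR3 was the highest library and R3 the lowest, and the nearest BR and R libraries were far apart, at 11.5 and 0.681 CPM. The means were 15.6 ± 6.16 CPM in BR and 0.539 ± 0.223 CPM in R (SD, n = 4), with a fitted log2 fold change of 4.63 (SE 0.37). The next, Glyma.19G054400.Wm82.a2.v1, on chromosome 19, has 950 bases. From BR1 to BR4 it had 110, 151, 132 and 185 counts, and from R1 to R4 it had 3, 9, 5 and 5. Here BR4 was the highest library and R2 the highest of its group. Means were 8.77 ± 1.68 and 0.374 ± 0.171 CPM (SD, n = 4), and the fitted log2 fold change was 4.33 (SE 0.31).

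Ranks 3 to 9 lay above the members' median BR level of 3.73 CPM and had reads in every R library. They lay on chromosomes 12, 9, 16, 19, 18, 6 and 10. Their mean BR values ran from 6.29 CPM at rank 8 to 12.9 CPM at rank 3, and their mean R values from 0.54 CPM at rank 8 to 1.33 CPM at rank 7. Rank 5, on chromosome 16, was the most even of these: it had 119, 156, 156 and 157 counts in BR1 to BR4, or 8.93 ± 0.739 CPM (SD, n = 4), and 15, 11, 17 and 11 counts in R, or 0.917 ± 0.216 CPM. Its fitted log2 fold change was 3.08 (SE 0.21). At rank 4, on chromosome 9, lay the longest member, of 5447 bases, with 10.8 ± 2.19 CPM in BR and 1.09 ± 0.326 CPM in R (SD, n = 4).

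Some members with lower scores came closer to absence in R, because the added 0.5 CPM holds down the score of weak genes. The gene at rank 10, on chromosome 12, had 38, 44, 103 and 60 counts in BR, in replicate order, and 0, 4, 0 and 1 in R. Likewise, rank 14, on chromosome 20, had 41, 33, 101 and 91 counts in BR and 0, 1, 1 and 3 in R. In both, BR3 was highest, and BR1 and BR2 held less than BR4. The fitted log2 fold changes of 5.14 (SE 0.71) at rank 10 and of 5.26, the highest of the set, at rank 14 rest on 5 reads each in the R group.

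The 2 members without any read in R were also the weakest in BR. The gene at rank 56, on chromosome 2, had 9, 11, 12 and 16 counts in BR1 to BR4, or 0.729 ± 0.164 CPM (SD, n = 4). Rank 88, on chromosome 3, had 9, 8, 10 and 10 counts, or 0.565 ± 0.0686 CPM. A count of 0 over the R group allows up to 3 reads, or 0.0509 CPM. The mean BR CPM over this floor gave lower bounds of 14.3-fold and 11.1-fold. The floor covers counting error in R only. The BR means were taken as measured, in CPM without TMM scaling. Both fell below the filter on low counts and have no value in the edgeR fit.

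**Figure D3:**
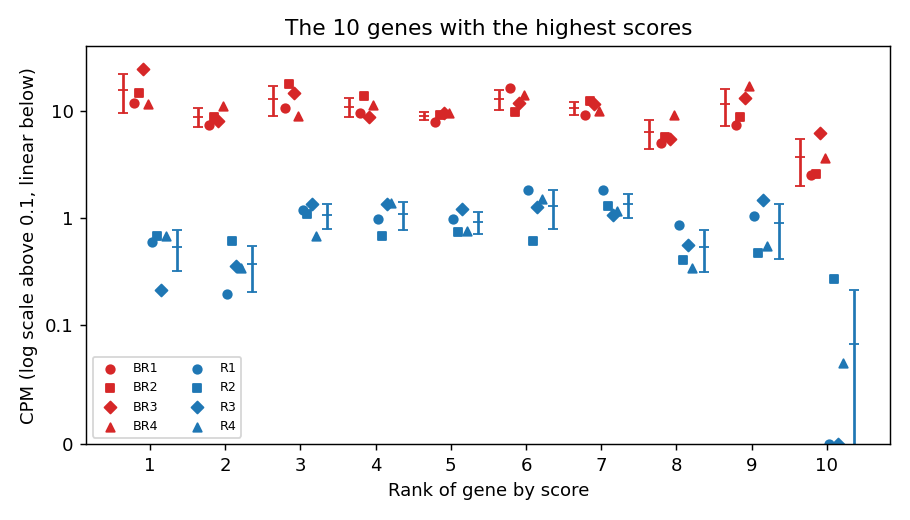
CPM of the 10 genes with the highest scores in each library (red BR, blue R, one marker shape per replicate number), with the mean and SD of each group beside the points; the axis is logarithmic above 0.1 CPM and linear below. The BR points of ranks 1 to 9 lie between 5.02 and 24.6 CPM and their R points under 2 CPM, and rank 10 reaches 0 in R1 and R3.

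Within BR the members did not follow a single library. BR1 was the highest BR library for 24 members, BR2 for 29, BR3 for 21 and BR4 for 26, and the lowest for 31, 26, 20 and 23. Among the 98 members with reads in R, R1 was the highest R library for 24, R2 for 31, R3 for 21 and R4 for 22. The ratio of the highest to the lowest BR library had a median of 1.66 and was under 1.5 for 32 members, at least 2 for 33 and at least 3 for 5. Over the 13627 tested genes in the members' range of mean CPM (0.283 to 8.06) its median was 1.74. The rule favours a high lowest library, and so an even BR group.

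Of the 5 most uneven members, 3 were short genes with their highest level in BR1. The gene at rank 36, on chromosome 5, of 648 bases, had 246 counts in BR1 and 49, 55 and 101 in BR2 to BR4, a 5.73-fold range of CPM, and 5, 12, 10 and 8 counts in R1 to R4. The gene at rank 45, on chromosome 6, of 598 bases, had 227, 128, 87 and 48 counts in BR1 to BR4, a 5.19-fold range, and 6, 14, 8 and 6 in R. Even the lowest BR library of each, at 2.83 and 2.89 CPM, lay above the highest R library, at 0.809 and 0.944 CPM. Rank 95, on chromosome 11, of 873 bases, had 50, 35, 29 and 18 counts in BR, a 3.05-fold range. The others were ranks 14 and 96, highest in BR3, with ranges of 3.19-fold and 3.17-fold. These 5 were picked after their values had been seen.

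The rule does not use the values of a library that is left out of the choice. It does use the opposite group that this library is set against, so the outcome is fixed in part. Libraries of a treatment may also be technical replicates, so a left-out library need not be independent of the others. Each library was left out in turn, 100 genes were chosen by the same rule from the other 7, and the left-out library was then read. A left-out BR library lay above all R libraries for 100, 99, 100 and 92 of the chosen genes (BR1 to BR4). A left-out R library lay below all BR libraries for 100, 90, 97 and 100 genes (R1 to R4). The corresponding shares over all low-R genes whose groups did not overlap in the 7 libraries were 73.9% to 86.6% for the BR libraries and 59% to 86.2% for the R libraries. The chosen genes are those with the wider gaps, so a higher share than that of all such genes is built into the choice.

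R2 departed most from what the other libraries gave. Of the 100 genes chosen without it, only 74 were under 2 CPM in R2, against 95 for R1, 89 for R3 and 96 for R4 when each of those was left out. The median of the chosen genes was 1.18 CPM in R2, beside 0.61 CPM over the other R libraries and 5.43 CPM over BR. Only 54 of the genes chosen without R2 belonged to the 100, against 76 to 88 when any other library was left out. The 46 genes that entered had medians of 0.852, 2.39, 0.422 and 0.307 CPM (R1 to R4), beside 3.34 CPM in the lowest BR library; R2 reached at least 2 CPM in 26 of them, up to 38.6 CPM, and reached the lowest BR library in 10. Membership in the 100 thus required under 2 CPM in R2, as in every R library. Within that limit R2 was still the highest R library for 31 members, more than any other R library.

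**Figure D4:**
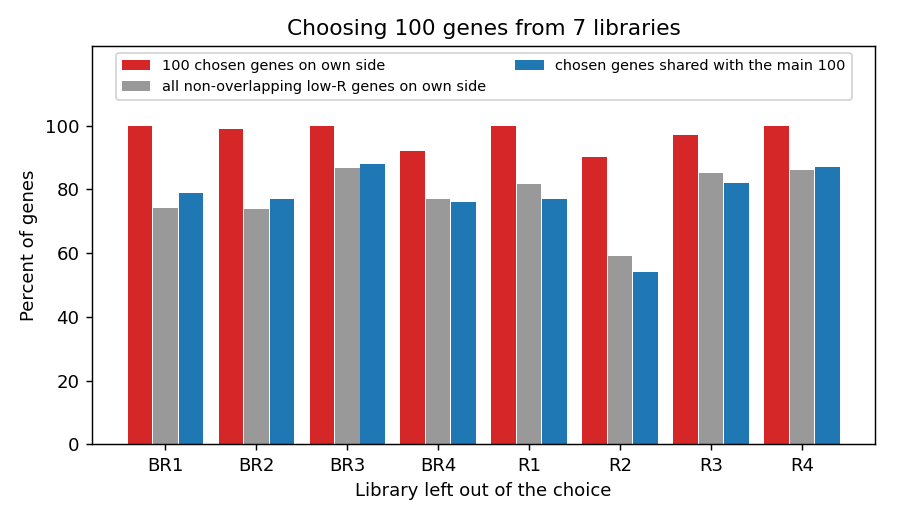
For each library left out of the choice (x axis), bars give the percent of the 100 genes chosen from the other 7 libraries that lay on their own group's side in the left-out library (red), the same over all low-R genes whose groups did not overlap in those 7 (grey), and the percent of chosen genes shared with the 100 members (blue). The red bars stand between 90 and 100, and the grey and blue bars are lowest for R2, at 59 and 54.

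The first ranks were chosen again most often, as the rule favours. When 1 library was left out, 52 of the 100 members were chosen again in all 8 cases. These included all 25 members of ranks 1 to 25 and none of ranks 76 to 100, where scores lay close together. Leaving out a library can only raise or keep the score of a gene, so genes that enter displace the last ranks first. The contrast between first and last ranks is thus in large part built into the ranking.

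Length was not used by the rule. Members were shorter than tested genes of like level, and genes that were low in R were also short as a whole. The median length of the members was 1362.5 bases, with a range from 473 to 5447, and 27 of 100 were of up to 1000 bases. Among the tested genes in the members' range of mean CPM the median was 1869 bases and 11.6% were that short, and among all tested genes 1904 bases and 10.5%. Among the 13855 genes with highest R values under 2 CPM and at least 1 count in any library, however, the median was 1503 bases and 25.5% were of up to 1000 bases. The mirrored 100 genes had a median of 1507 bases and 23% of up to 1000 bases. The 1418 other low-R genes whose groups did not overlap had a median of 1634 bases, and 20% were of up to 1000 bases. They lay between the low-R genes with a count and the tested genes of like level. No difference in length between these sets was tested.

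Short genes were also more frequent among the other genes higher in BR. Of the 2257 genes called higher that were not members, 19.4% were of up to 1000 bases, against 6.39% of the 3054 called lower. Libraries differed in how level followed length: over all tested genes, log2(CPM + 0.5), centred on each gene's mean, changed per doubling of length by -0.138, 0.016, -0.0056 and -0.059 from BR1 to BR4 and by -0.043, -0.036, 0.131 and 0.134 from R1 to R4. BR1, with the steepest negative slope, was the highest BR library for 10 of the 27 members of up to 1000 bases and for 14 of the 73 longer ones. The part of this length trend in the members' levels was not tested. The longer members alone summed to 327 to 350 CPM in the BR libraries and to 43.3 to 52 CPM in the R libraries, and the short ones to 102 to 127 and to 13.4 to 16.7 CPM, a gap that the rule fixed in any subset of the members.

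**Figure D5:**
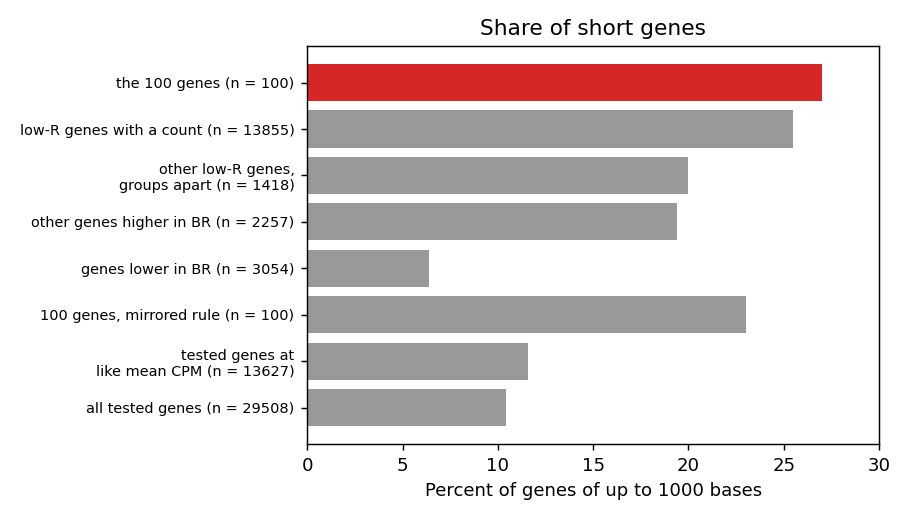
Percent of genes of up to 1000 bases (x axis) in the 100 members (red) and in 7 comparison sets (grey), with the number of genes in each; low-R genes are those with highest R values under 2 CPM. The members stand at 27%, close to the 25.5% of all low-R genes with a count and above the 10.5% of all tested genes.

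The members were scattered over the genome. They lay on all 20 chromosomes and none on an unplaced scaffold. Chromosomes 6, 8 and 12 held 7 members each and chromosomes 2 and 9 held 2 each. Per 1000 tested genes of the chromosome, members ranged from 1.19 on chromosome 2 to 5.77 on chromosome 16; counts this small carry wide counting error. Order along a chromosome was read from the serial number in the identifier.

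Among the members, 2 pairs lay within 5 places in the order of the count table, and in both the genes were adjacent. How many pairs a random set of the same size would hold was not computed. On chromosome 7, the genes at ranks 37 and 44 had 41, 53, 50 and 41 counts and 73, 61, 91 and 89 counts in BR1 to BR4. In R they had 3, 10, 8 and 8 counts and 3, 3, 17 and 11 counts, so that R1 was lowest at rank 37 and R1 and R2 held equal counts at rank 44. On chromosome 19, the genes at ranks 47 and 77 had 71, 130, 86 and 75 counts and 57, 29, 30 and 37 counts in BR, and 17, 16, 24 and 13 counts and 9, 5, 8 and 6 counts in R. The partners did not share a profile over the BR libraries: rank 47 was highest in BR2 (7.52 CPM) and rank 77 in BR1 (3.77 CPM). Whether adjacent members share sequence, and so reads, could not be examined without sequences.

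Most genes directly beside members did not share their change. The members had 196 immediate neighbours outside the set, of which 147 passed the filter on low counts. Of these, 20 were called higher in BR (edgeR adjusted p below 0.05), or 13.6% beside 7.98% of all tested genes in the same fit, and 8 were called lower. Their median log2 fold change was 0.13, beside -0.02 for all tested genes and 2.58 for the members. The difference between the shares was not tested.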

How the data were processed

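Nodule RNA of 8 libraries, 4 per group, was extracted with Trizol and made into libraries with a VAHTS Universal V6 kit, per the labels' protocols; whether strand was kept is not stated there. The authors deposited raw read counts per gene. They also deposited FPKM for 39910 genes, which equal the counts divided by library total and a fixed gene length; these lengths were used here. The submitters' processing notes list HTSeq 0.6.0, HISAT2 2.1.0, Bowtie2 2.2.3, TopHat2 and CASAVA, with no role for each. Beyond the Wm82.a2.v1 in the gene identifiers, no genome build is named in the sources used here. Reads of near-identical copies or overlapping genes may be split or lost in counting.

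CPM used the column totals. Fits used R 4.3.3 and edgeR 4.0.16: filterByExpr (minimum count 10, minimum total 15), TMM scaling, the quasi-likelihood F test, and Benjamini-Hochberg adjustment over 29508 genes, called at adjusted p below 0.05; each SE is the fold change over the square root of F. The fit was also run on simulated counts that did not imitate the difference in scaling between the groups, and its outcome is not reported here. The TMM factors of BR libraries lay between 1.05 and 1.1 and those of R libraries between 0.914 and 0.951, so that folds in CPM exceed the fitted ones. DESeq2 1.42.0, other scalings, no filter, a replicate block, other forms of the rule and each library left out were alternatives. Members, lists and comparisons were chosen with earlier results of these data known. The rule for genes given by identifier took the 2 highest scores, because no source used here names the genes; for the same reason lists by gene description, promoter motifs, proteins and tissue markers were not analysed.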

Additional observations from a re-analysis of the deposited data

Results flagged for a closer look

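In each group of 4 libraries, a highest or lowest library was sought that lay more than 0.829 of the group's range from the others. The search covered 3 summary measures of the set and 24 members described singly or in ranges, 54 groups in all. The nominal rate by chance is about 1 in 20, which low counts of genes chosen by their extreme libraries need not follow. Groups of equal values could not be flagged. Such a library was found in 2 groups. At rank 8, on chromosome 6, BR4 had 9.08 CPM (151 counts), where BR1 to BR3 had 76, 97 and 90 counts. At rank 88, on chromosome 3, BR2 had 0.463 CPM (8 counts), where the other BR libraries had 9, 10 and 10 counts, a gap of 1 or 2 reads. Over both groups of all 100 members, 200 groups, 17 held such a library, from 1 to 3 per library.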

How the results depend on the processing

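The list of members depended on the rule. With R held under 1 CPM, 61 of the 100 genes were chosen again, with no limit on R 45 (R values then reached 84 CPM), and with group means in place of extremes 64. With the other offsets, TMM-scaled CPM and FPKM, 75 to 95 were chosen again. Leaving out 1 library kept 54 (without R2) to 88. In 2 alternatives chosen after seeing the data, 52 remained without R3 and R4, and 24 without R1 and R2. Over the 15 planned ways of choosing, 21 members were chosen every time.

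The share of members of up to 1000 bases, a measure added after seeing the data, was 27% and lay between 16% (without R1 and R2) and 29%, with 18% without R2 and with no limit on R; the median length lay between 1327 and 1636 bases. The members called higher numbered 96 to 98 of 98 without 1 library, and 98 of 98 or 100 of 100 in 6 other settings; their median log2 fold change lay between 2.52 and 2.78. Both were fixed in part by the choice of the members in these libraries. Over all genes, 1282 to 3463 were called higher without 1 library and 4291 with total counts, against 2355; the cause was not tested. Same-numbered libraries deviated from their group means with correlations of 0.07, 0.09, -0.08 and 0.09, so the numbers were not taken as pairs; with the replicate block 98 members and 2055 genes in all were called higher. The log2 fold changes of the 2 genes given by identifier lay between 4.34 and 4.83 and between 4.14 and 4.67. Pairs of members within 5 places numbered 1 to 3. Motif settings were not run. Low counts in R limit the size of single folds.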
